A study of Homo sapiens with 20 samples.

Results

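RNA levels of 6 enzymes of the pentose phosphate pathway were followed: PGLS and PGD of the oxidative arm, the isomerase RPIA and the epimerase RPE that handle ribulose 5-phosphate, and TKT and TALDO1, which move carbon units between sugar phosphates. The genes were found by symbol among 50775 features, of which 31339 had a count; all 6 had counts in every library, from 59 for RPIA in 94T778 with torkinib to 14608 for TKT in untreated AU565, and passed the filter on low counts with 16698 genes in all. Of the paralogs, TKTL2 had no count in any of the 20 libraries, TKTL1 had 0 to 4 counts, and RPEL1 was not analysed here.

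The pentose phosphate pathway branches off glycolysis at glucose 6-phosphate. Its oxidative arm yields NADPH, the reducing agent for lipid synthesis, deoxynucleotide synthesis and glutathione recycling, and ends in ribulose 5-phosphate. Its non-oxidative arm turns that sugar into ribose 5-phosphate for nucleotides, or passes carbon back to glycolysis as fructose 6-phosphate and glyceraldehyde 3-phosphate. In growing cells MTOR signalling is known to support the expression of the pathway's genes, in part through the SREBP transcription factors.

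The RNA came from 5 established human cancer cell lines, each exposed to torkinib (PP242), an inhibitor that competes with ATP at the MTOR kinase, for 72 h, or left untreated, a state for which no time is given. The lines, with their doses, were 94T778, a well-differentiated liposarcoma line (10 µM), the melanoma lines A375 and SKMEL28 (4 µM each), and the breast cancer lines SKBR3 (0.8 µM) and AU565 (4 µM). Doses were chosen by the submitters to stop the cell cycle with viability kept, so doses are matched among A375, SKMEL28 and AU565 alone, and culture media differed between lines. SKBR3 and AU565 are known to come from the same patient, and each line stands for 1 tumour. Each of the 10 groups held 2 libraries, and the labels do not say whether these were separate cultures; the p-values rest on the spread between libraries, which may be technical.

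Libraries held 4040023 to 9737903 counted reads. Melanocyte markers summed to 11365 to 11559 CPM (counts relative to library size, all libraries brought to the same depth) with torkinib against 7612 to 7980 CPM untreated in SKMEL28, and to 629 to 684 CPM with torkinib against 646 to 712 CPM untreated in A375. Luminal and HER2 markers summed to 14245 to 14353 CPM with torkinib against 22354 to 23284 CPM untreated in SKBR3, and to 11436 to 12039 CPM with torkinib against 17521 to 17536 CPM untreated in AU565. Genes of the 12q amplicon summed to 10757 to 11161 CPM with torkinib against 11971 to 12153 CPM untreated in 94T778, whereas adipocyte markers did not mark that line, with ADIPOQ and LEP at 0. Blood and endothelial markers summed to 149 to 157 CPM with torkinib against 15.5 to 21.5 CPM untreated in SKBR3, and to 77.6 to 79.9 CPM with torkinib against 26.4 to 26.6 CPM untreated in AU565. Of the 6 markers listed, 5 were in the files. HBB was at 0 in these groups, as were PTPRC in SKBR3 with torkinib and CD3E in both AU565 groups, so the sums came from few genes. The nuclear RNA NEAT1, named after its values were seen, stood at 3173 to 3248 CPM with torkinib against 827 to 1129 CPM untreated in AU565, 1203 to 1295 CPM with torkinib against 328 to 462 CPM untreated in 94T778, and 1812 to 1816 CPM with torkinib against 812 to 891 CPM untreated in A375. In SKMEL28 NEAT1 stood at 1858 to 1994 CPM with torkinib against 1125 to 1252 CPM untreated, and in SKBR3 at 1993 to 2267 CPM with torkinib against 1383 to 2596 CPM untreated, where the groups overlapped. MALAT1, another nuclear RNA named likewise, stood at 419 to 454 CPM with torkinib against 146 to 194 CPM untreated in 94T778. It stood at 262 to 289 CPM with torkinib against 100 to 126 CPM untreated in SKMEL28. In AU565 it was 667 to 695 CPM with torkinib against 448 to 596 CPM untreated. In A375 it was 537 to 627 CPM with torkinib against 485 to 506 CPM untreated, and in SKBR3 the groups overlapped. A pair of untreated libraries stood apart from their replicates: in A375 replicate 1, genes that mark 94T778 reached 1.84% (median) of what untreated 94T778 showed, against 0.185% in replicate 2, and in SKBR3 replicate 1 mitochondrially encoded genes took 7.63% of counts, against 4.44% in replicate 2. That share was also 6.20 to 6.32% with torkinib against 4.11 to 4.66% untreated in AU565, and 7.39 to 8.39% with torkinib against 5.27 to 6.58% untreated in SKMEL28. A chi-square per gene comparing the 2 libraries of a group was 12.2 in untreated SKBR3. In the other groups it was 1.37 to 3.37. All libraries share 1 spread in the fit, so the untreated SKBR3 pair also bears on calls in other lines. The part of these shifts in marker lists, nuclear RNAs and mitochondrial counts in the results below was not tested. In bulk RNA, fewer cells of a kind and less RNA per cell cannot be told apart.

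Averaged over the 5 lines, 5 of the 6 enzymes were lower with torkinib and PGLS was higher, and all 6 changes passed the test (edgeR's quasi-likelihood test, Benjamini-Hochberg adjusted over all 16698 genes at 0.05, as for every call below). Of all genes tested, 28.1% were called lower on the average and 28.4% higher. TKT had the largest change at -0.78 on the log2 scale (SE 0.03, edgeR adjusted p = 6.0e-21), followed by TALDO1 at -0.52 (SE 0.03), PGD at -0.35 (SE 0.03), RPIA at -0.27 (SE 0.06) and RPE at -0.25 (SE 0.05), while PGLS stood at 0.35 (SE 0.06). The median of the 6 was -0.31, beside -0.01 over all genes. All 6 average calls held with A375 untreated replicate 1 and SKBR3 untreated replicate 1 left out together.

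The response differed between lines in which enzymes moved. In AU565, 4 enzymes were lower and none higher, where 28.6% of all genes were called lower and 26.9% higher. SKBR3 had 3 lower and none higher, against 26.7% and 24.6% of all genes. PGLS in AU565, at 0.05 on the log2 scale, was the single change above 0 in these lines, with an unadjusted edgeR p of 0.724. In 94T778, 4 were lower and 1 higher, against 23.8% lower and 23.8% higher among all genes. SKMEL28 had 3 lower and 2 higher, against 23.7% and 20.4%. A375 had 1 lower and 1 higher, against 24.3% and 18.5%. With lower and higher calls added, the share of members called was thus not above the share of all genes in A375 or in SKBR3. Of the 6 enzymes TKT alone was called lower in all 5 lines, as were 4.62% of all genes tested, and no enzyme was called higher in all 5.

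**Figure D1:**
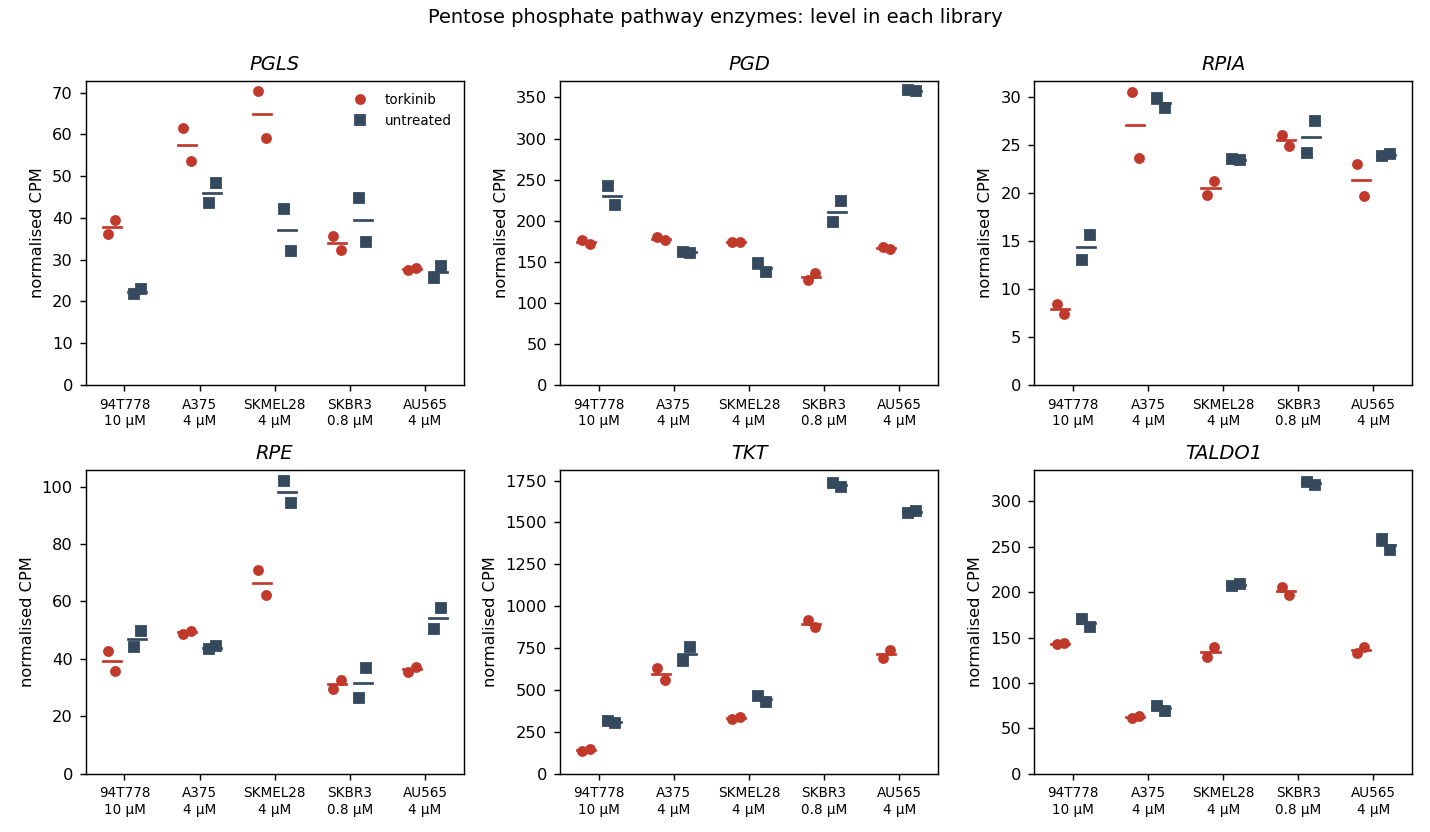
Level of each enzyme in each of the 20 libraries, in normalised CPM (vertical axis, from 0, a scale of its own per gene), by cell line and dose (horizontal axis); red circles are torkinib libraries, dark squares untreated libraries, and short lines their means (n = 2 each). TKT and TALDO1 libraries with torkinib lie below the untreated ones in all 5 lines, PGD does so in 94T778, SKBR3 and AU565 and lies above in A375 and SKMEL28, and PGLS lies above in 94T778, A375 and SKMEL28.

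The starts of TKT and TALDO1, which fell in most lines, of PGD, whose direction differed between lines, and of PGLS, which rose, are shown to let their promoters be compared. Each covers 250 bases before to 50 after the annotated start (RefSeq, build GRCh38.p14, not the build of the counts), 5′ to 3′ on the gene's strand, with capitals marking matches on either strand to the motifs searched: the E-box CACGTG, the antioxidant response element TGACNNNGC, the sterol response element TCACNCCAC, the CCAAT box CCAAT and the GC box GGGCGG. They are chr3:53255973-53256272 (minus strand) for TKT, chr11:747214-747513 (plus strand) for TALDO1, chr1:10398814-10399113 (plus strand) for PGD and chr19:17511399-17511698 (plus strand) for PGLS.
TKT: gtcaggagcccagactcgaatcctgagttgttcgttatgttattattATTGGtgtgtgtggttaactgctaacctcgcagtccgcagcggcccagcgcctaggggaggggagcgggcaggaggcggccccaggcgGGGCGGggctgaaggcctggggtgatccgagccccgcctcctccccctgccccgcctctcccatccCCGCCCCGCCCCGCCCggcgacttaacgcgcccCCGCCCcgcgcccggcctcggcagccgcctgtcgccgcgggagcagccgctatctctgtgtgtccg
TALDO1: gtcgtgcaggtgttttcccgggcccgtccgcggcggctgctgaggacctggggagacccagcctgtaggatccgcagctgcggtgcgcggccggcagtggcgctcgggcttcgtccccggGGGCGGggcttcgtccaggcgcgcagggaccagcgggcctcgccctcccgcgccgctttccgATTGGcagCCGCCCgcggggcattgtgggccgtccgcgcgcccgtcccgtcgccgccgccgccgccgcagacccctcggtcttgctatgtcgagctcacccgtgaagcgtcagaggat
PGD: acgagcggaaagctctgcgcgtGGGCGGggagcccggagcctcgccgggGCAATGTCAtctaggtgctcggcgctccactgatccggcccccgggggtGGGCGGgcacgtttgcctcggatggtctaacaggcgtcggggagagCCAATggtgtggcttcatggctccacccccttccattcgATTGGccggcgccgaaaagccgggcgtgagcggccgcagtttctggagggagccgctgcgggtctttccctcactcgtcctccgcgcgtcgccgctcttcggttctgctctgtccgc
PGLS: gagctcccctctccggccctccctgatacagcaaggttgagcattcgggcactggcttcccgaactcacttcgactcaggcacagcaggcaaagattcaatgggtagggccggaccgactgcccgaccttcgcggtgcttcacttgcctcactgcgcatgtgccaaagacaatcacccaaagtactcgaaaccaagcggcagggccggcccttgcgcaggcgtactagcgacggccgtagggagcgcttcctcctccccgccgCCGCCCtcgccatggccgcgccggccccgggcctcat
None of the 6 promoters held an E-box or a sterol element in this window, letters found in 7.26% and 1.13% of 35116 promoters of the same length. TKT held 5 GC boxes, 3 of them in a run whose neighbours overlap by 1 base, and 1 CCAAT box; TALDO1 held 2 and 1, and PGD 2 and 2, with 1 antioxidant element. PGLS held 1 GC box and no CCAAT box. GC boxes were in 45.0%, CCAAT boxes in 34.6% and antioxidant elements in 13.3% of all promoters. RPE, not printed, held 3 GC boxes, 2 CCAAT boxes and 1 antioxidant element, and RPIA 1 GC box and 1 CCAAT box. These are matches of letters only, not sites.

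TKT, transketolase, transfers carbon pairs between sugar phosphates and links ribose 5-phosphate to glycolysis. In AU565 its level was 688 and 739 CPM with torkinib and 1554 and 1566 CPM untreated. In SKBR3 it was 918 and 873 CPM with torkinib and 1734 and 1713 CPM untreated. In 94T778 it was 133 and 145 CPM with torkinib and 316 and 303 CPM untreated. In these lines the torkinib libraries lay far below the untreated ones, and the levels were 2.18, 1.92 and 2.22 times lower with torkinib in AU565, SKBR3 and 94T778 in turn. The log2 changes were -1.13 in AU565, -0.94 in SKBR3 and -1.15 in 94T778 (SE 0.08 each, edgeR adjusted p = 3.3e-15, 4.1e-13 and 2.5e-14).

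The melanoma lines had smaller changes of TKT. In SKMEL28 its level was 327 and 338 CPM with torkinib and 464 and 430.4 CPM untreated, with no overlap, a log2 change of -0.43 (SE 0.08, edgeR adjusted p = 2.2e-05). In A375 it was 629 and 560.3 CPM with torkinib and 674 and 754 CPM untreated, a log2 change of -0.26 (SE 0.08, edgeR adjusted p = 0.00527). The A375 libraries did not overlap, but the gap between the groups was smaller than the gap between replicates within each, and without untreated replicate 2 the change was -0.18 (edgeR adjusted p = 0.130), and without torkinib replicate 2 -0.19 (edgeR adjusted p = 0.123), so the call was lost.

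TALDO1, transaldolase, the other carbon transferase of the non-oxidative arm, was called lower in 4 of 5 lines. In AU565 its level was 133 and 139.6 CPM with torkinib against 258 and 246 CPM untreated, in SKBR3 205 and 197 CPM with torkinib against 322 and 318 CPM untreated, and in SKMEL28 128 and 139 CPM with torkinib against 207 and 209 CPM untreated. No torkinib library reached an untreated one in these lines, and replicates lay close together. The log2 changes were -0.89, -0.67 and -0.64 in AU565, SKBR3 and SKMEL28 (SE 0.08, 0.07 and 0.07, edgeR adjusted p = 1.1e-12, 8.4e-10 and 5.7e-09). In 94T778 the level was 143 and 144 CPM with torkinib against 171 and 162 CPM untreated, a change of -0.21 (SE 0.08, edgeR adjusted p = 0.0194), which became -0.10 (edgeR adjusted p = 0.283) when libraries were scaled by their totals alone. That call was also lost, at changes of about the same size, without untreated replicate 1 (-0.18, edgeR adjusted p = 0.146), torkinib replicate 1 (-0.20, edgeR adjusted p = 0.0926) or torkinib replicate 2 (-0.22, edgeR adjusted p = 0.0625). In A375 TALDO1 had 61.6 and 63.2 CPM with torkinib against 74.9 and 69.1 CPM untreated, a change of -0.21 (SE 0.09) with the groups apart but short of the threshold (edgeR adjusted p = 0.0571). The A375 change passed with limma-voom (-0.21, limma-voom adjusted p = 0.0488). It also passed without either SKBR3 untreated library (-0.21 each).

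PGD, 6-phosphogluconate dehydrogenase, makes NADPH and ribulose 5-phosphate in the last oxidative step. Its direction was not the same in all lines. In AU565 it had 168 and 165 CPM with torkinib against 358 CPM in both untreated libraries, in SKBR3 128 and 136 CPM with torkinib against 198 and 224 CPM untreated, and in 94T778 176 and 172 CPM with torkinib against 242 and 219 CPM untreated. The groups stood apart in all 3 lines, by more than the spread of replicates. The log2 changes were -1.11 in AU565, -0.68 in SKBR3 and -0.41 in 94T778 (SE 0.08 each, edgeR adjusted p = 4.7e-15, 4.2e-09 and 3.1e-05). In SKMEL28 PGD was higher, with 174 and 175 CPM with torkinib against 148 and 137 CPM untreated, a change of 0.29 (SE 0.08, edgeR adjusted p = 0.00231), and of 0.23 without untreated replicate 2 (edgeR adjusted p = 0.0768), where the call was lost. In A375 it had 180.1 and 176 CPM with torkinib against 162 and 161 CPM untreated, a change of 0.14 (SE 0.08) that did not pass (edgeR adjusted p = 0.142). Scaled by library totals alone or with A375 fitted by itself, that change was 0.21 (edgeR adjusted p = 0.0388) and 0.18 (edgeR adjusted p = 0.0394) and passed.

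The untreated lines differed in PGD by 2.51 times between the highest and lowest mean, and the torkinib groups by 1.35 times. Untreated means ran from 358 ± 0.105 CPM in AU565 down to 143 ± 7.96 CPM in SKMEL28, and torkinib means from 178 ± 2.73 CPM in A375 down to 132 ± 5.38 CPM in SKBR3 (SD, n = 2 each). AU565, the highest of the untreated lines in PGD, was the fourth of the torkinib groups, with no overlap with its neighbours in either order.

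PGLS, 6-phosphogluconolactonase, opens the lactone ring in the step before PGD. It was the only enzyme of the 6 higher on the average, and it passed in 3 lines. In SKMEL28 it had 70.3 and 59.2 CPM with torkinib against 42.0 and 32.1 CPM untreated, and in 94T778 36.1 and 39.4 CPM with torkinib against 21.9 and 22.9 CPM untreated. The torkinib libraries were all above the untreated ones in these lines, with log2 changes of 0.84 (SE 0.12, edgeR adjusted p = 2.6e-07) in SKMEL28 and 0.76 (SE 0.14, edgeR adjusted p = 2.7e-05) in 94T778. In A375 it had 61.4 and 53.5 CPM with torkinib against 43.7 and 48.3 CPM untreated, a change of 0.33 (SE 0.12, edgeR adjusted p = 0.0236).

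The A375 call of PGLS was lost without untreated replicate 1, the library with 94T778 genes (0.25, edgeR adjusted p = 0.172), without torkinib replicate 1 (0.22, edgeR adjusted p = 0.302) and with DESeq2 (0.33, DESeq2 adjusted p = 0.112). In the breast lines the groups overlapped. AU565 had 27.6 and 28.0 CPM with torkinib against 25.5 and 28.4 CPM untreated, a change of 0.05 with a 95% interval of -0.24 to 0.34. SKBR3 had 35.6 and 32.4 CPM with torkinib against 44.7 and 34.2 CPM untreated, a change of -0.21 with an interval of -0.48 to 0.07. The higher untreated value of SKBR3 was replicate 1, the library with more mitochondrially encoded counts: without it the change was -0.03 (edgeR adjusted p = 0.965), and with it alone as the untreated library -0.40 (edgeR adjusted p = 0.0178).

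RPIA, ribose 5-phosphate isomerase, makes the ribose 5-phosphate used for nucleotides and had the lowest counts of the 6. It fell in 94T778, to 8.47 and 7.43 CPM with torkinib against 13.0 and 15.6 CPM untreated, a log2 change of -0.85 (SE 0.18, edgeR adjusted p = 1.5e-04). The groups did not overlap there, and 94T778 also had the lowest RPIA of the untreated lines. The other lines gave no call, with changes of -0.20 in SKMEL28, -0.18 in AU565, -0.09 in A375 and -0.03 in SKBR3 and 95% intervals that all included 0. The interval reached down to -0.46 in SKMEL28 and -0.45 in AU565, so falls of up to those bounds were not excluded there.

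RPE, ribulose 5-phosphate 3-epimerase, makes the xylulose 5-phosphate that TKT uses. In SKMEL28 it had 70.8 and 62.3 CPM with torkinib against 102 and 94.3 CPM untreated, and in AU565 35.6 and 37.2 CPM with torkinib against 50.4 and 57.8 CPM untreated. These groups did not overlap, and the log2 changes were -0.55 (SE 0.10, edgeR adjusted p = 2.0e-05) in SKMEL28 and -0.56 (SE 0.12, edgeR adjusted p = 1.0e-04) in AU565. In 94T778 it had 42.8 and 35.7 CPM with torkinib against 44.3 and 49.8 CPM untreated, a change of -0.26 (SE 0.12) just short of the threshold (edgeR adjusted p = 0.0702). That change passed with RLE factors (-0.28, edgeR adjusted p = 0.0481), with 94T778 fitted alone, with the replicate block and without 94T778 torkinib replicate 1 (-0.40). It also passed without either SKBR3 untreated library (-0.26 each). It was -0.15 with library totals alone (edgeR adjusted p = 0.323) and -0.14 without torkinib replicate 2 (edgeR adjusted p = 0.493). In A375 it had 48.6 and 49.7 CPM with torkinib against 43.4 and 44.4 CPM untreated (change 0.16, edgeR adjusted p = 0.284), and in SKBR3 29.6 and 32.7 CPM with torkinib against 26.5 and 36.8 CPM untreated, where the groups overlapped.

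Reads of RPE are less certain than those of the other enzymes. In the GENCODE 29 annotation it overlaps KANSL1L on the opposite strand (listed under its older symbol C2orf67, with 30 to 308 counts per library), and it has 7 named copies, 6 of them processed pseudogenes. PGLS overlaps 2 non-coding genes on the opposite strand, and PGD and RPIA have 1 processed pseudogene each. The strand setting of the counting is not given in the sources used here, so reads of overlapping genes cannot be told apart.

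**Figure D2:**
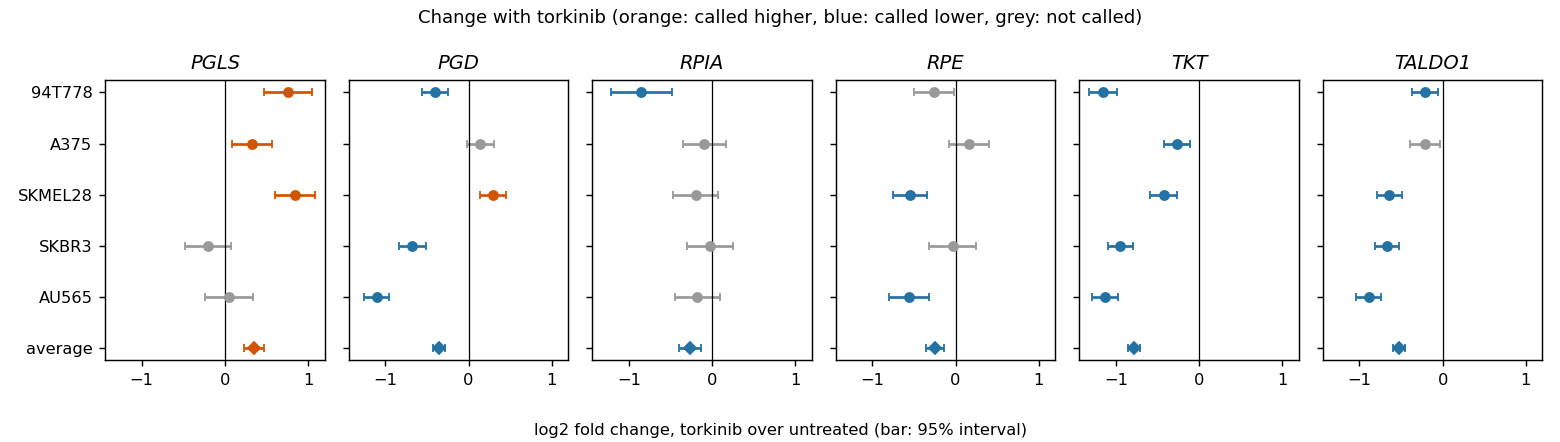
Log2 fold change, torkinib over untreated (horizontal axis), of each enzyme in each line and on the average of the 5 lines (vertical axis); points are edgeR estimates, bars their 95% intervals without adjustment for multiple tests, and colours give the call after adjustment (orange higher, blue lower, grey not called). TKT lies below 0 in all 5 lines, from -1.15 in 94T778 to -0.26 in A375, PGD spans -1.11 in AU565 to 0.29 in SKMEL28, and the A375 interval of TALDO1 leaves out 0 although its adjusted p is 0.0571.

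Without torkinib the enzymes differed between lines, and all 6 passed the test for any difference among the untreated groups, as did 96.3% of all genes tested. TKT had the widest range. Untreated TKT stood at 1723 ± 15.3 CPM in SKBR3, 1560.1 ± 8.96 CPM in AU565, 714 ± 56.4 CPM in A375, 447 ± 23.7 CPM in SKMEL28 and, the lowest, 309 ± 9.49 CPM in 94T778 (SD, n = 2 each), with no overlap between neighbours and a ratio of 5.57 between the ends. With torkinib the order was the same, from 896 ± 31.9 CPM in SKBR3 through 714 ± 35.9 CPM in AU565, 595 ± 48.9 CPM in A375 and 333 ± 7.70 CPM in SKMEL28 to 139 ± 8.64 CPM in 94T778, with a ratio of 6.43. The AU565 libraries with torkinib lay between the untreated libraries of A375.

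TALDO1 followed another order. Untreated means were 320.0 ± 2.84 CPM in SKBR3, 252 ± 8.41 CPM in AU565, 208 ± 1.56 CPM in SKMEL28, then 166 ± 5.96 CPM in 94T778 and last 72.0 ± 4.11 CPM in A375 (SD, n = 2 each), with no overlap between neighbours. With torkinib the levels of AU565 (136 ± 4.84 CPM) and SKMEL28 (134 ± 7.83 CPM) overlapped, 94T778 came before them with 143 ± 1.32 CPM, and A375 stayed the lowest with 62.4 ± 1.19 CPM. A375, the third line in TKT, was the last in TALDO1.

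RPE was highest in SKMEL28, with 66.5 ± 5.98 CPM with torkinib and 98.2 ± 5.52 CPM untreated, and lowest in SKBR3, with 31.2 ± 2.19 CPM with torkinib and 31.6 ± 7.31 CPM untreated. RPIA was lowest in 94T778, with 7.95 ± 0.730 CPM with torkinib and 14.3 ± 1.88 CPM untreated, against 20.5 to 27.0 CPM with torkinib and 23.4 to 29.3 CPM untreated over the means of the other lines. Untreated PGLS overlapped between A375 and SKBR3 and between SKBR3 and SKMEL28, and was lowest in 94T778 with 22.4 ± 0.706 CPM (SD, n = 2 each throughout).

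Per kilobase of merged exon (GENCODE 29), levels can be set side by side between genes, as far as that annotation fits the one used for counting. TKT held 48.9 and 50.4% of the summed per-kilobase level of the 6 enzymes in AU565 with torkinib against 54.1 and 54.5% untreated, and 52.1 and 51.3% in SKBR3 with torkinib against 58.3 and 57.7% untreated. In 94T778 it held 14.9 and 16.0% with torkinib against 26.0 and 26.2% untreated. TKT was thus the most abundant enzyme per kilobase in the breast lines and A375 in either state, and in 94T778 it was not: there PGD had 92.3 ± 1.42 and TALDO1 107 ± 0.978 CPM per kb with torkinib, against 122 ± 8.50 and 124 ± 4.42 CPM per kb untreated, and TKT 45.9 ± 2.85 with torkinib against 102 ± 3.13 CPM per kb untreated (SD, n = 2 each).

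The ratio of TKT to TALDO1 per kilobase was below 1 in 94T778 and highest in A375. It was 0.415 and 0.447 in 94T778 with torkinib against 0.822 and 0.828 untreated, 1.13 and 1.08 in SKMEL28 with torkinib against 0.995 and 0.913 untreated, and 4.54 and 3.93 in A375 with torkinib against 3.99 and 4.84 untreated. The groups overlapped in A375 and stood apart in 94T778 and SKMEL28, in opposite directions. In the breast lines it was 1.98 and 1.96 with torkinib against 2.39 in both untreated libraries of SKBR3, and 2.30 and 2.35 with torkinib against 2.67 and 2.82 untreated in AU565. The summed level of the 6 enzymes, not per kilobase, was 1075 and 1129 CPM with torkinib against 2270.3 and 2281 CPM untreated in AU565, and 1343 and 1296 CPM with torkinib against 2349.6 and 2353 CPM untreated in SKBR3. It was 539 and 544 CPM with torkinib against 808 and 772 CPM untreated in 94T778, 790.2 and 795 CPM with torkinib against 987 and 926 CPM untreated in SKMEL28, and 1012 and 927 CPM with torkinib against 1028 and 1106 CPM untreated in A375. TKT made up most of these sums in the breast lines and A375.

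The response to torkinib differed between lines for each of the 6 enzymes when all 5 lines were tested together, as it did for 68.4% of all genes (edgeR quasi-likelihood F test). The adjusted p was 2.0e-13 for PGD, 1.3e-09 for TKT, 1.4e-06 for TALDO1, 1.35e-05 for PGLS, 3.8e-04 for RPE and 0.0170 for RPIA by edgeR. For RPIA the call was lost without 94T778 untreated replicate 2 (edgeR adjusted p = 0.195), without 94T778 torkinib replicate 2 (edgeR adjusted p = 0.128) and with DESeq2 (DESeq2 adjusted p = 0.0592). That test also spans 3 doses, so line and dose cannot be told apart in it.

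At the shared dose of 4 µM the 3 pairs of lines gave 18 comparisons of the 6 enzymes, 10 of which passed; the pairs share libraries, so their values are not independent of each other. Between AU565 and A375, 4 enzymes differed, beside 38.0% of all genes. The difference in log2 change, AU565 minus A375, was -1.25 for PGD (SE 0.11), -0.86 for TKT (SE 0.11), -0.68 for TALDO1 (SE 0.12) and -0.72 for RPE (SE 0.17), all lower in AU565 (edgeR adjusted p = 1.1e-11, 3.6e-08, 1.0e-05 and 6.0e-04). For PGLS and RPIA the differences of -0.28 and -0.08 had 95% intervals of -0.65 to 0.10 and -0.46 to 0.29.

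Between AU565 and SKMEL28, 3 enzymes differed, beside 34.8% of all genes. PGD differed by -1.40 (SE 0.11, edgeR adjusted p = 7.5e-13), PGLS by -0.79 (SE 0.18, edgeR adjusted p = 7.7e-04) and TKT by -0.70 (SE 0.11, edgeR adjusted p = 2.5e-06). The PGD difference joins a change of -1.11 in AU565 with one of 0.29 in SKMEL28. The PGLS difference joins 0.05 in AU565, not called, with 0.84 in SKMEL28. For TALDO1 the difference of -0.25 had an interval of -0.47 to -0.04 and an adjusted p by edgeR of 0.0631. It passed with limma-voom (-0.25, limma-voom adjusted p = 0.0331). Without either SKBR3 untreated library (-0.26 each) or without SKMEL28 torkinib replicate 1 (-0.32) it passed too. For RPE and RPIA the differences of -0.01 and 0.02 had intervals of -0.32 to 0.30 and -0.36 to 0.40.

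Between the melanoma lines A375 and SKMEL28, 3 enzymes differed, beside 28.4% of all genes, with 2231 of all genes called higher and 2514 lower, or 2749 higher and 2061 lower when libraries were scaled by totals alone. RPE differed by 0.71 (SE 0.15, edgeR adjusted p = 4.6e-04) and TALDO1 by 0.43 (SE 0.12, edgeR adjusted p = 0.00423), with changes of 0.16 and -0.21 in A375 and of -0.55 and -0.64 in SKMEL28, and PGLS by -0.51 (SE 0.17, edgeR adjusted p = 0.0189). The PGLS difference lost its call with library totals alone (-0.42), with DESeq2 (-0.49) and without A375 untreated replicate 2 (-0.44), A375 torkinib replicate 2 (-0.43), SKMEL28 untreated replicate 2 (-0.31) or SKMEL28 torkinib replicate 1 (-0.38). For TKT the difference of 0.16 had a 95% interval of -0.06 to 0.39, and for PGD the difference of -0.15 one of -0.37 to 0.08, so that differences of up to those bounds were not resolved.

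**Figure D3:**
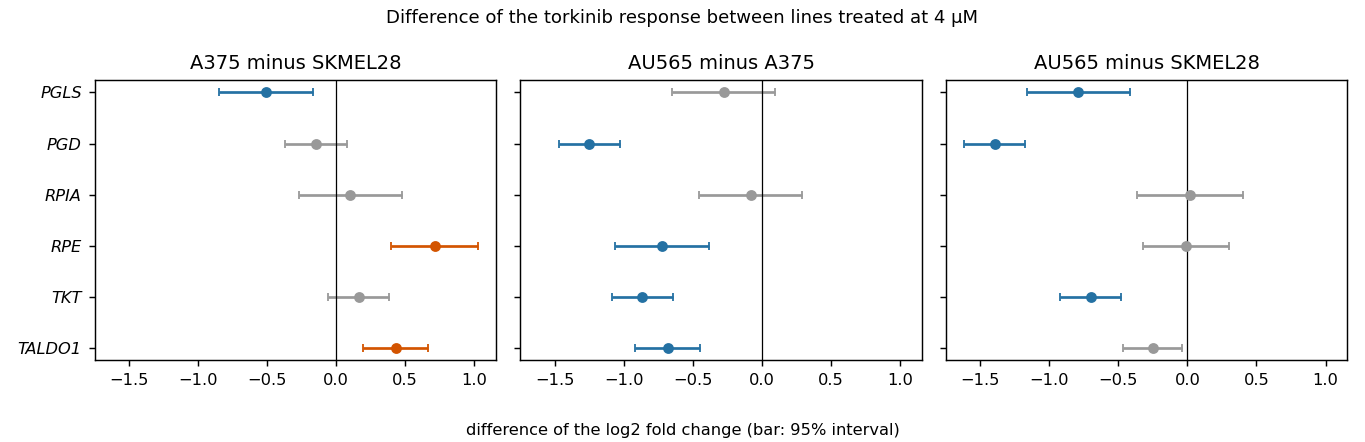
Difference of the log2 change with torkinib between the 3 lines treated at 4 µM (horizontal axis), for each enzyme (vertical axis); points are edgeR estimates, bars 95% intervals, orange and blue mark differences called higher and lower and grey those not called. PGD in AU565 differs by -1.25 from A375 and by -1.40 from SKMEL28, whereas its A375 minus SKMEL28 difference of -0.15 has an interval that includes 0.

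The enzymes were set beside lists of their metabolic surroundings, described by counts and medians alone, to be read beside the 28.1% of all genes called lower and 28.4% called higher on the average. A list of 15 tested genes held glycolytic enzymes that share intermediates with the pathway, and also FBP1, C12orf5, PFKFB2, PFKFB3 and PFKFB4. FBP1 reverses a glycolytic step, and the others named set the level of fructose 2,6-bisphosphate. Of the 15, none was higher and 13 were lower on the average, with a median of -0.86. FBP1, C12orf5, PFKFB2 and PFKFB4 were among those lower. Glycolytic examples are TPI1, which makes glyceraldehyde 3-phosphate, at -1.23, GPI, which makes fructose 6-phosphate from glucose 6-phosphate, at -1.04, and the hexokinase HK1 at -1.03 (edgeR adjusted p = 4.2e-28, 1.6e-25 and 1.6e-24). All 3 fell in all 5 lines. PFKFB3 and PFKM were the only averages above 0 in the list, at 0.02 and 0.01, with unadjusted edgeR p-values of 0.601 and 0.828. The list's median was below that of the pathway enzymes in each line. It was -1.01 in AU565 and -0.99 in SKBR3, where the pathway enzymes had medians of -0.73 and -0.44, and -1.12 in 94T778, where they had -0.33. It was -0.89 in SKMEL28 and -0.42 in A375, where they had -0.31 and 0.02.

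Of 10 tested enzymes that feed or drain the pathway, 2 were higher and 6 lower on the average. H6PD, which runs the oxidative steps inside the endoplasmic reticulum, was higher in all 5 lines, by 1.06 on average (edgeR adjusted p = 4.4e-23). PGM1, which links glucose 6-phosphate to glycogen, was at -0.78 and PRPS1, which makes PRPP from ribose 5-phosphate, at -0.60 (edgeR adjusted p = 1.9e-19 and 3.2e-15). PRPS1 fell in 94T778, A375 and SKMEL28 and stood at 0.05 in SKBR3 and -0.08 in AU565, the breast lines in which TKT changed by -0.94 and -1.13. Its isozyme PRPS2, named after its values were seen, stood at -2.65 in SKBR3 and -3.44 in AU565. PRPS2 was at -0.80 in 94T778, -1.01 in A375 and 0.08 in SKMEL28, and was called lower in 3 lines (average -1.57, SE 0.44, edgeR adjusted p = 0.00232).

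Of 12 tested other sources of NADPH, 1 was higher and 8 were lower. The isocitrate dehydrogenases IDH2 (mitochondrial) and IDH1 (cytosolic) stood at -1.88 and -0.88, and MTHFD2, a mitochondrial folate dehydrogenase, at -1.36 (edgeR adjusted p = 1.3e-29, 5.3e-21 and 1.4e-26). IDH1 was higher in SKBR3, at 0.30. A list of 14 NADPH users counted ribonucleotide reductase subunits, which draw on NADPH indirectly, and CYB5R3, which works mainly with NADH. Of the 14, 2 were higher and 12 lower, with CYB5R3 at -0.49 among the lower. RRM2, a ribonucleotide reductase subunit, stood at -3.66, and DHCR7, an enzyme of cholesterol synthesis, at -2.22 (edgeR adjusted p = 2.1e-35 and 2.9e-32). RRM2 and DHCR7 fell in all 5 lines.

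Of 8 NRF2 target genes, 2 were higher and 4 lower, with NQO1 at -0.85, HMOX1 at -1.35 and GCLC at 0.38 (edgeR adjusted p = 8.7e-23, 1.3e-16 and 1.3e-08); GSR and TXNRD1 stand in this list and among the NADPH users. Of 7 regulators known to act on the pathway's genes, 4 were higher and 3 lower. They were transcription factors apart from KEAP1, which is known to restrain NRF2 and stood at 0.27, among those higher. SREBF1 stood at -1.16, SREBF2 at -0.73 and HIF1A at -0.73 (edgeR adjusted p = 4.1e-24, 6.0e-20 and 2.7e-19). SREBF1 was at -2.28 in AU565, -1.92 in SKBR3, -1.54 in 94T778 and -0.33 in A375, all called lower, and at 0.27 in SKMEL28, called higher; PGD stood at -1.11, -0.68, -0.41, 0.14 and 0.29 in the same order of lines. The pairing of SREBF1 with PGD was not planned. In that order of lines TKT stood at -1.13, -0.94, -1.15, -0.26 and -0.43. TALDO1 stood at -0.89, -0.67, -0.21, -0.21 and -0.64, so neither followed the order of SREBF1. In SKMEL28, where SREBF1 was higher, TKT (-0.43), TALDO1 (-0.64) and RPE (-0.55) were called lower. The 5 points share the libraries of each line, and no test was made of their likeness.

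**Figure D4:**
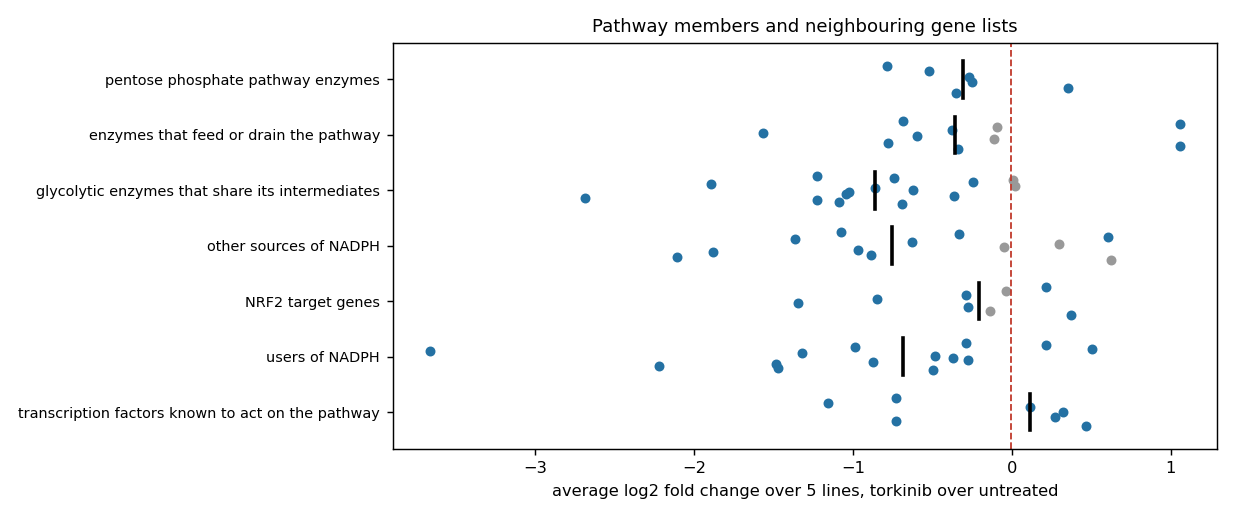
Average log2 fold change over the 5 lines, torkinib over untreated (horizontal axis), for the pathway enzymes and the neighbouring gene lists (vertical axis); each point is a gene, blue if called and grey if not, black bars are list medians and the red dashed line the median of all genes tested. The glycolytic list has its median at -0.86 and the pathway enzymes at -0.31, with PGLS as the single pathway point right of 0.

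The enzymes were not alike in pattern over the 20 libraries. TKT and RPIA had a Pearson r of 0.78 and TKT and TALDO1 of 0.35, while PGLS and TALDO1 had -0.50. After each line's mean was subtracted, so that the drug and replicate spread remained, TKT had an r of 0.85 with TALDO1 and 0.80 with PGD, and PGLS one of -0.68 with RPIA and -0.44 with TKT. Among 10902 genes at a mean of 8 CPM or more, the patterns most like TKT over the libraries were those of EMP2 (r = 0.979), IFI30 (0.971) and MCCC2 (0.969), and after subtraction those of GPI (0.992), DHCR7 (0.991) and FDFT1 (0.988). For TALDO1 they were GAS2L1 (0.964), P4HB (0.960) and EIF4G1 (0.949), and after subtraction ACTR1A (0.983) and PRDX1 (0.983) were among them.

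For PGD the patterns most like it were those of SEPX1 (r = 0.891), FKBP3 (0.849) and MAPK9 (0.837), for PGLS those of MAP3K10 (0.936), DFNB31 (0.916) and KCTD13 (0.899). For RPIA they were SSBP1 (0.931), ERBB3 (0.928) and TRMT6 (0.927), and for RPE HSD17B12 (0.950), ARL6IP5 (0.923) and TMEM64 (0.921). After subtraction each of these lists of 3 changed in full, led by ATP5A1 (0.981) for PGD, PPDPF (0.948) for PGLS, C6orf218 (0.905) for RPIA and GFM1 (0.954) for RPE. These are the extremes of many genes over libraries that share lines, and are given as a description.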

How the data were processed

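Total RNA was sequenced from 20 libraries in 10 groups of 2. The deposited files hold whole-number counts per gene symbol with no normalization, as the authors made them; the submitters' processing notes name the build hg19 (GRCh37) and the tools limma 3.34.9, HTSeq 0.6.1 and HISAT2 2.04. The tools' roles, the annotation and the strand setting stand as not given in the sources used here. The counter's summary lines stayed out, and counted reads were 47.8 to 62.4% of all reads.

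Counts were fitted in edgeR 4.0.16 (R 4.3.3) with TMM factors, filterByExpr and a mean for each group in a single model over all libraries, which share 1 spread (biological coefficient of variation in common, 0.0547). The quasi-likelihood test was made for each line, the average, any difference between lines, the 3 pairs of lines at 4 µM and the untreated levels, with p-values adjusted over 16698 genes by Benjamini-Hochberg and called at 0.05. Levels are CPM on TMM-scaled library sizes. Sums over marker lists use CPM of library totals. At this depth the smallest standard error of a log2 change in 1 line was 0.07 and the largest, for RPIA, 0.18. The fit was tested on simulated counts first.

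Alternatives were RLE factors, library totals alone, no low-count filter, DESeq2 1.42.0, limma-voom (limma 3.58.1), each line fitted alone, a replicate block and leaving out each library; leaving out 2 untreated libraries together was added after seeing the data. The members, gene lists, tests and markers of other lines were chosen with earlier results of these data known. By rule, the text names the members and their paralogs, the 3 genes with the smallest p on the average in each list, and the 3 genes most like each member by Pearson r of log2 CPM (prior count 2); 1 gene so chosen is not reported here. C12orf5, RBKS, PRPS2, NEAT1, MALAT1, PFKM, PFKFB2, PFKFB3, PFKFB4, FBP1, KEAP1, CYB5R3 and the 94T778 markers followed in A375 were chosen after their values were seen. Promoter sequences and motif shares come from RefSeq (GRCh38.p14), exon lengths and overlaps from GENCODE 29, whose coordinates were not mixed with the counts.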

Additional observations from a re-analysis of the deposited data

Results flagged for a closer look

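Each of the 6 enzymes is listed here because the effect of torkinib was not the same in all 5 lines by a test of the difference itself (edgeR's quasi-likelihood F test, adjusted over all genes). The adjusted p was 1.35e-05 for PGLS, 2.0e-13 for PGD, 0.0170 for RPIA, 3.8e-04 for RPE, 1.3e-09 for TKT and 1.4e-06 for TALDO1. Changes ran from -0.21 in SKBR3 to 0.84 in SKMEL28 for PGLS, from -1.11 in AU565 to 0.29 in SKMEL28 for PGD, and from -0.85 in 94T778 to -0.03 in SKBR3 for RPIA. They ran from -0.56 in AU565 to 0.16 in A375 for RPE, from -1.15 in 94T778 to -0.26 in A375 for TKT, and from -0.89 in AU565 to -0.21 in A375 for TALDO1. The same test called 68.4% of all genes. Doses differed among these lines, so line and dose cannot be told apart here.

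At the shared dose of 4 µM, 10 of 18 differences between pairs of lines passed the same kind of test, beside 38.0% of all genes for AU565 minus A375, 34.8% for AU565 minus SKMEL28 and 28.4% for A375 minus SKMEL28. For AU565 minus A375 the edgeR adjusted p was 1.1e-11 for PGD, 6.0e-04 for RPE, 3.6e-08 for TKT and 1.0e-05 for TALDO1. For AU565 minus SKMEL28 it was 7.7e-04 for PGLS, 7.5e-13 for PGD and 2.5e-06 for TKT by edgeR. For A375 minus SKMEL28 it was 0.0189 for PGLS, 4.6e-04 for RPE and 0.00423 for TALDO1 by edgeR. PGD was called lower in AU565 and higher in SKMEL28, the single case among these of calls in opposite directions.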

How the results depend on the processing

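Of 1800 values of the members under 28 alternatives, 1741 kept their direction and their side of the threshold, 20 lost a call, 18 gained one and 21 changed sign, all of the last among values that were not called. The average calls of all 6 enzymes held under every alternative run that gives an average, and TKT was called lower in every line under every alternative except A375 without untreated replicate 2 or torkinib replicate 2. In A375, 2 enzymes were called, against 1 with DESeq2, 1 with A375 untreated replicate 1 and SKBR3 untreated replicate 1 left out together, and 1 to 3 with a single library left out; the cause was not tested.

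The sign turned for RPIA in SKBR3 with RLE factors (0.0017) and DESeq2 (0.0061), for PGLS in AU565 with no filter (-0.0092), for RPIA in AU565 minus SKMEL28 with no filter (-0.052), and for RPE in AU565 minus SKMEL28 with RLE factors (0.0053), library totals alone (0.037) and DESeq2 (0.0036). With single libraries left out, RPIA ran from -0.31 to 0.055 in A375, -0.12 to 0.074 in SKBR3, -0.12 to 0.25 in A375 minus SKMEL28, -0.24 to 0.13 in AU565 minus A375 and -0.094 to 0.13 in AU565 minus SKMEL28. RPE ran from -0.25 to 0.24 in SKBR3 and -0.12 to 0.078 in AU565 minus SKMEL28, and PGLS from -0.038 to 0.11 in AU565.

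The correlation of replicate differences between treatments was -0.09, -0.08, -0.01 and -0.05 in 94T778, A375, SKMEL28 and AU565. In these lines it gave no sign that replicate numbers pair the libraries. In SKBR3 it was 0.29, where libraries with the same number deviated partly alike. With the replicate block 9460 genes were called on the average, against 9426 without it; it moved no count of calls past 1.5 times, and among members RPE in 94T778 gained a call (-0.26, edgeR adjusted p = 0.0464). Fitting each line alone gives no average or difference between lines. DESeq2 and the block give no test of untreated levels. The lowest counts, those of RPIA, limit what can be resolved.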

Other observations

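C12orf5, the older symbol of TIGAR, whose product lowers fructose 2,6-bisphosphate and so is known to favour the pathway over glycolysis, was chosen after its values were seen. Its log2 change was -3.31 in AU565, -1.66 in 94T778, -1.27 in SKBR3 and -0.64 in SKMEL28, all called lower, and 0.75 in A375, called higher (average -1.23, SE 0.08, edgeR adjusted p = 7.7e-16). The kinases and phosphatases of the same metabolite did not all move alike. PFKFB4 was lower in all 5 lines, with an average of -1.89, and PFKFB2 was called lower in 4 lines, with an average of -0.86. PFKFB3 stood at 1.77 in SKBR3, 0.98 in AU565, -0.48 in A375, -1.07 in 94T778 and -1.10 in SKMEL28. PFKFB3 passed the test in each line, in opposite directions, and its average of 0.02 gave no call (edgeR adjusted p = 0.765).

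RBKS, ribokinase, which brings free ribose back as ribose 5-phosphate, was the other feeding enzyme called higher on the average beside H6PD, at 1.06 (SE 0.15, edgeR adjusted p = 1.9e-07), and in 3 lines. RBKS, PFKFB2, PFKFB3 and PFKFB4 were named after their values were seen.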
